A study of Equus caballus with 4 samples.

Results

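NRF2 (gene *NFE2L2*), its inhibitor KEAP1, and genes of antioxidant defense and iron handling were examined in differentiating equine satellite cells (ESC), stem cells of muscle that fuse into myotubes. Members were selected by gene symbol, with earlier results of these data known: *NFE2L2*, *KEAP1*, *HMOX1*, *NQO1*, *SRXN1*, *FTH1*, *FTL*, *TFRC*, *SLC11A2* and *SLC40A1*. Of these 10 genes, 9 had a probe on the array, with 11 probes in 15 spots, among 13349 gene symbols and 43603 probes in all. No probe carried the symbol *SRXN1* (sulfiredoxin, which repairs oxidized peroxiredoxins), so this gene was not analysed here. Both groups came from *m. semitendinosus* of young stallions and were collected on day 3 of differentiation, and both were exposed to 3 mM H2O2 for 1 h. The HMB-treated group had also been given the leucine metabolite HMB at 50 µM for 24 h, with H2O2 in the last hour, whereas the control group received no HMB. RNA of both groups was hybridized together on each of 4 arrays, HMB-treated in Cy5 and control in Cy3. The comparison is thus between H2O2-exposed cells with and without HMB. The dyes were never swapped, so treatment and dye cannot be told apart. The labels name the 4 arrays as biological replicates but do not tie them to animals, they give the control of every array the same replicate number, and the study's methods state that the culture with the best viability and fusion was selected, so the arrays may come from 1 animal. The p-values thus measure the spread between these arrays, which may be technical in part. If the control was 1 RNA, its own spread is not in the errors below.

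NRF2 is a transcription factor that is held in the cytoplasm by KEAP1, an adaptor of a CUL3 ubiquitin ligase, and is degraded there in unstressed cells. Oxidants modify KEAP1, and NRF2 then accumulates in the nucleus and activates antioxidant and detoxifying enzymes, ferritin and heme oxygenase 1. Since this control acts mostly on the protein, transcript levels of *NFE2L2* and *KEAP1* do not report NRF2 activity. Iron enters cells through the transferrin receptor and the transporter DMT1, is stored in ferritin and leaves through ferroportin. In muscle much of it goes into myoglobin and the enzymes of the respiratory chain.

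Each probe is an oligonucleotide of 60 bases, and the files place it on the horse genome build EquCab1 without naming the exon. The sequences below are shown because the reading of these genes turns on what the probe covers. The *HMOX1* probe lies on chromosome 28 between 32851501 and 32852382 on the plus strand, a span of 882 bases, so its 60 bases are split by an intron and match the spliced transcript:
HMOX1: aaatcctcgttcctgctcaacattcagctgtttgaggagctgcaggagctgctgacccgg
The *NQO1* probes lie on the minus strand of chromosome 3 (19655685 to 19655744 and 19655705 to 19655764), start 20 bases apart and share 40 bases, given in capitals. They are therefore near repeats of 1 measurement:
NQO1 first probe: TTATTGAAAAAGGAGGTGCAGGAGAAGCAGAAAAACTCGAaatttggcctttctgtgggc
NQO1 second probe: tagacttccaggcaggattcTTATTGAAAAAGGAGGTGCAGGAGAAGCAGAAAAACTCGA
The ferritin probes are shown because ferritin genes have near-identical copies in mammalian genomes. The files list 4 transcripts for each *FTH1* probe, 2 of RefSeq and 2 of Ensembl, so the signal may come from more than 1 gene copy. The second *FTH1* probe (unplaced sequence chrUn, 117613011 to 117613070, minus strand) and the *FTL* probe (chrUn, 234059506 to 234059565, plus strand) read:
FTH1 second probe: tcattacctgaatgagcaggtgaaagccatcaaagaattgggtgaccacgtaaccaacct
FTL: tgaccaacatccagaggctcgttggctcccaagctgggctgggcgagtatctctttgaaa

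Of the 8 genes that could be tested, *HMOX1* and *SLC11A2* were higher in HMB-treated ESC, *TFRC* was lower, and *NFE2L2*, *KEAP1*, *NQO1*, *FTH1* and *FTL* did not pass. Probes were tested where the signal of 1 or both dyes stood well over background on each of the 4 arrays, and were called at an adjusted p of 0.05 or less (limma, Benjamini-Hochberg over 24669 tested probes) with a fold change (FC) of 1.3 or more. Ratios are given as log2 of HMB-treated over control, so that 0 is no difference and a negative value is lower with HMB. By this rule 28.6% of all tested probes were called, 12.1% higher and 16.4% lower, and with each gene symbol taken by its brightest tested probe 27.3% of 8319 symbols were called (10.0% higher and 17.2% lower). The 3 calls in 8 genes (37.5%) are to be read against that share. The median ratio of the 8 genes was 0.13, and that of all tested symbols was -0.09. Of all tested probes, 61.5% had ratios of the same sign on all 4 arrays, so the same direction on each array is common. *SLC40A1* was not tested, because it was near background.

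Markers of cell types differed between the groups as well. Of 9 muscle markers on the array, 7 were lower with HMB (77.8%, against 17.2% of all symbols), and the median of the 9 was -1.10. Among the 7, *MYF6* was above background in the control channel only and passed the filter through it. The myogenic factors *MYOD1* (0.32 ± 0.25, FC 1.25, other probe -0.11) and *MYOG* (0.03 ± 0.22) were not called. The summed signal of the 9 was 169679 to 191481 in the control channel and 64766 to 102995 in the HMB channel. Such sums add levels of different probes, so the brightest probes weigh most. In such bulk RNA, fewer cells of a type and less RNA per cell cannot be told apart. Of 6 fibroblast markers, 4 were higher (66.7%, against 10.0% of all symbols), with summed signals of 413316 to 503650 in the control and 405633 to 633656 with HMB. By their brightest probes, *COL1A2* (-0.23 ± 0.34) and *COL3A1* (0.06 ± 0.29) were not called, although 3 of 7 tested *COL3A1* probes were. Of 6 markers of macrophages and leukocytes, 2 were above background, with sums of 3688 to 4439 in the control and 4163 to 6223 with HMB. Of these, *CD68* was called higher (0.88 ± 0.20, FC 1.84, adjusted p = 0.000630, limma) and *CD14* was not (0.20 ± 0.19), while *AIF1*, *ITGAM* and *MSR1* were never above it. Macrophages also express *HMOX1*, *SLC40A1* and ferritin, and whether such cells contribute to the ratios of these genes was not tested. None of 5 endothelial markers was above background on all arrays (*CDH5*, *KDR*, *PECAM1* and *VWF* on no array), with sums of 43.7 to 83.3 in the control and 49.9 to 80.9 with HMB. Of 3 erythroid markers, *HBB* and *SLC4A1* were never above background. The third, *ALAS2*, was above it in both channels on all 4 arrays and was not called (-0.03 ± 0.18). The sums of the 3 were 291 to 464 in the control and 326 to 481 with HMB. The part of the cell make-up in the ratios of the iron and NRF2 genes was not tested. The arrays were alike in quality, with 57.6% to 60.6% of probes well above background in the control channel and 55.2% to 61.8% in the HMB channel. No spot of the 9 genes was saturated or marked as uneven.

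**Figure D1:**
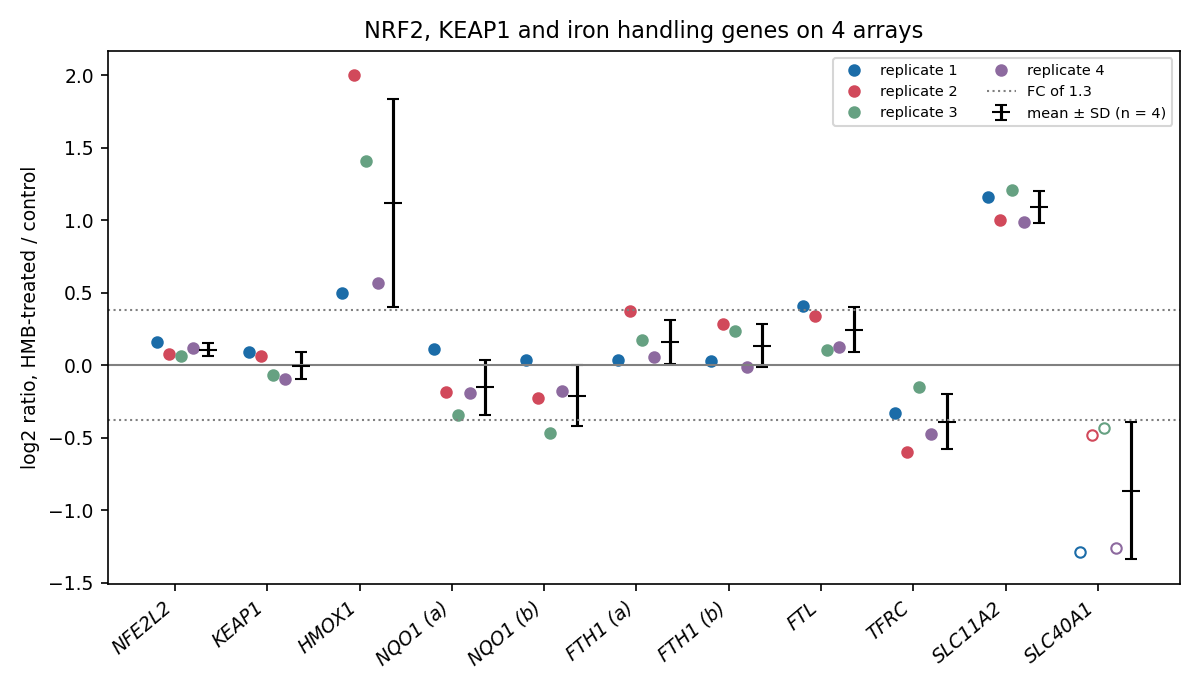
Log2 ratio of HMB-treated over control ESC (vertical axis) for each probe of the 9 genes (horizontal axis), with 1 point per array and the mean ± SD of 4 arrays in black. Letters a and b mark the first and second probe of *NQO1* and *FTH1*, dotted lines mark an FC of 1.3, and open points belong to the untested *SLC40A1* probe. The *SLC11A2* points lie together between 0.99 and 1.21, whereas those of *HMOX1* spread from 0.50 to 2.00.

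The transcripts of NRF2 and its inhibitor were nearly level. The *NFE2L2* probe (chromosome 18, 44067783 to 44067842, minus strand) gave ratios of 0.16, 0.08, 0.06 and 0.12 on arrays 1 to 4. Its normalized signal was 1350, 1350, 1676 and 1313 arbitrary units in the control channel and 1511, 1425, 1751 and 1428 in the HMB channel. The HMB channel was thus brighter on each array by a small margin, while the ranges of both channels overlapped across arrays. The mean was 0.11 ± 0.04 (SD, n = 4), with a 95% confidence interval from -0.04 to 0.25 and an adjusted p of 0.184 by limma. This was 1 of the most even ratios measured, since 96.6% of tested probes had an SD at least as large. The interval corresponds to an FC between 0.97 and 1.19, so a change past the FC threshold lay outside it.

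The *KEAP1* probe (chrUn, 144976773 to 144976832, plus strand) gave 0.09, 0.06, -0.07 and -0.10. The control channel read 682, 555, 691 and 587, and the HMB channel 727, 579, 660 and 549. HMB-treated cells were therefore brighter on arrays 1 and 2 and dimmer on arrays 3 and 4. The mean was -0.002 ± 0.09 (SD, n = 4; interval -0.16 to 0.16; adjusted p = 0.983, limma). KEAP1 thus showed no difference beyond the spread between arrays, and the interval leaves room for an FC of up to 1.11 in the upward direction.

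*HMOX1* encodes heme oxygenase 1, which breaks heme down to biliverdin, carbon monoxide and free iron. Its ratios were 0.50, 2.00, 1.41 and 0.57. The control channel read 113, 99.0, 68.5 and 52.5, and the HMB channel 159.5, 396, 181.9 and 78.0. The HMB channel was brighter on every array, by far the most on array 2, but the HMB signal of array 4 was below the control signal of arrays 1 and 2. The mean was 1.12 ± 0.72 (SD, n = 4), an FC of 2.17 with an interval from 1.42 to 3.32, and the adjusted p was 0.0131 (limma). Only 0.90% of tested probes had an SD as large as this. The call was lost without array 3 (mean 1.02, adjusted p = 0.0648, limma). It was kept without array 2, where the mean fell the most, to 0.83 (adjusted p = 0.0245, limma). The call was also lost with the methods' t-test (adjusted p = 0.109). With normexp background correction and loess the ratio was 0.58 (adjusted p = 0.0798).

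Among 8318 other tested gene symbols, *SLC1A2*, *ICOSLG* and *RGS16* had the ratios most like those of *HMOX1* over the 4 arrays, by root mean square difference. That of *SLC1A2* (a glutamate transporter) was 0.31, with ratios of 0.96, 1.96, 1.05 and 0.75. *ICOSLG* (a costimulatory ligand of T cells) differed by 0.34 and *RGS16* (a regulator of G protein signaling) by 0.35. All 3 had their highest ratio on array 2, as *HMOX1* did, at 1.96, 2.07 and 1.63, respectively. Selection by likeness to *HMOX1* favors such a peak, so it is no separate result.

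NQO1 is a quinone reductase and a classical NRF2 target. Its second probe, the brighter of the pair, gave 0.04, -0.22, -0.47 and -0.18. The control channel read 434, 396, 595 and 464, against 446, 339, 429 and 409 in the HMB channel. The ratio was below 0 on 3 of 4 arrays, lowest on array 3, and averaged -0.21 ± 0.21 (SD, n = 4; interval -0.43 to 0.01; adjusted p = 0.107, limma). The first probe gave 0.11, -0.18, -0.34 and -0.19 (mean -0.15 ± 0.19, adjusted p = 0.192, limma). The pair, which shares 40 bases, ordered the arrays nearly alike and does not count as separate measurements. *NQO1* showed no rise, whereas *HMOX1* was called higher, a call lost under 6 of 19 alternatives. The difference between both genes was not tested.

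Ferritin, the iron storage shell, is built from heavy (*FTH1*) and light (*FTL*) subunits. The *FTL* ratios were 0.41, 0.34, 0.10 and 0.13, from control signals of 10703, 9801, 12852 and 10073 and HMB signals of 14219, 12430, 13810 and 11012. The HMB channel was brighter on all 4 arrays, more so on arrays 1 and 2, and the ranges overlapped across arrays. The mean was 0.25 ± 0.15 (SD, n = 4) with an adjusted p of 0.0408 (limma). The FC of 1.19 (interval 1.04 to 1.35) was under the threshold, so *FTL* was not called.

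The first *FTH1* probe (chrUn, 117612805 to 117612864, minus strand) gave 0.04, 0.37, 0.18 and 0.06. Its control signal was 136734, 112904, 159196 and 121093, and its HMB signal 140553, 146020, 179791 and 125877. Array 2 had the largest ratio and arrays 1 and 4 were near 0. The mean was 0.16 ± 0.15 (SD, n = 4; interval -0.03 to 0.35; adjusted p = 0.135, limma). The second probe, which starts 206 bases away and shares no base with the first, gave 0.03, 0.29, 0.24 and -0.01 (mean 0.13 ± 0.15, adjusted p = 0.195). Both probes thus placed arrays 2 and 3 above arrays 1 and 4.

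The ferritin values depend on how the bright end of the arrays is normalized. Only 0.54% of tested probes were as bright as the first *FTH1* probe, and 6.93% as bright as the *FTL* probe. Before lowess, with each array centered on its median, the first *FTH1* probe gave 0.90, 1.12, 0.86 and 1.11 and the second 0.51, 0.71, 0.55 and 0.41. At this stage the 247 brightest of the tested probes (the brightest 1%) had a median of 0.89 and all tested probes a median of 0.07. After lowess these medians were 0.05 and -0.07. The shift of the first *FTH1* probe by lowess was thus shared by the brightest 1% as a group. The second *FTH1* probe lies outside this group, since 2.74% of tested probes were as bright. By its first probe, *FTH1* was called higher without lowess (1.00, adjusted p = 0.000130, limma) and with normexp (0.41, adjusted p = 0.00607, limma). The same probe lay at -0.33 with scaling to spike-in RNA. *FTL* was called higher without lowess (0.47, adjusted p = 0.00531, limma). In the unnormalized difference, dye and treatment cannot be told apart.

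*TFRC* encodes the transferrin receptor, which takes up iron bound to transferrin. Its probe (chromosome 19, 29613618 to 29613677, plus strand) was printed in 5 spots on each array, and the means of the spots were -0.33, -0.60, -0.15 and -0.47. The control channel read 72.0, 72.6, 83.1 and 70.9, and the HMB channel 57.3, 48.1, 75.0 and 51.3. The HMB channel was dimmer on each array, while the HMB signal of array 3 exceeded the control signal of the other arrays. Single spots ranged from -0.49 to -0.18 on array 1, from -0.86 to -0.36 on array 2, from -0.31 to -0.07 on array 3 and from -0.64 to -0.37 on array 4, so each spot was below 0. The mean was -0.39 ± 0.19 (SD, n = 4; adjusted p = 0.0128, limma), an FC of 1.31 downward.

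This *TFRC* call was at the edge of the FC threshold and the signal was low. It was lost without array 2 (-0.32, adjusted p = 0.0458) and without array 4 (-0.36, adjusted p = 0.0482), where the FC fell under 1.3. It was also lost with normexp (-0.14) and without background correction (-0.15), both under the FC threshold.

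*SLC11A2* encodes DMT1, which carries ferrous iron out of endosomes and across the plasma membrane. Its probe (chromosome 6, 68491943 to 68492002, minus strand) gave 1.16, 1.00, 1.21 and 0.99. The control channel read 154, 127, 193 and 149, and the HMB channel 344, 254, 446 and 296. The lowest HMB signal exceeded the highest control signal, and the share of all tested probes for which this held was not counted. A mean ratio at least as large in size was found for 5.72% of tested probes. The mean was 1.09 ± 0.11 (SD, n = 4), an FC of 2.13 with an interval from 1.90 to 2.39 and an adjusted p of 8.85e-05 (limma). This was the only 1 of the 3 called genes that kept its call under each of 19 alternatives, with ratios from 0.60 to 1.19. Some of these could not move its ratio, since it has 1 probe and no marked spot. They were the authors' table, marked spots kept and the mean over the probes of a gene. The ratio also stayed at 1.09 with the methods' t-test, treat, moderation with a trend, separate channels and other filters on dim probes. Those alternatives bear on its p-value only. Whether the probe covers the *SLC11A2* transcripts with or without an iron-responsive element was not determined here.

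*SLC40A1* encodes ferroportin, the known exporter of iron from cells. Its probe (chromosome 18, 54610913 to 54610972, minus strand) gave -1.29, -0.48, -0.43 and -1.26. The control signal was 33.2, 12.4, 38.5 and 15.3, and the HMB signal 13.6, 8.89, 28.6 and 6.40. The control channel was well above background on arrays 1 and 3 and the HMB channel only on array 3, and the HMB signal of array 4 had been replaced by a surrogate. The mean was -0.87 ± 0.47 (SD, n = 4) but -0.06 with normexp and -0.15 without background correction. A level of ferroportin was thus measured in both groups on 1 array only, and no change is stated.

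**Figure D2:**
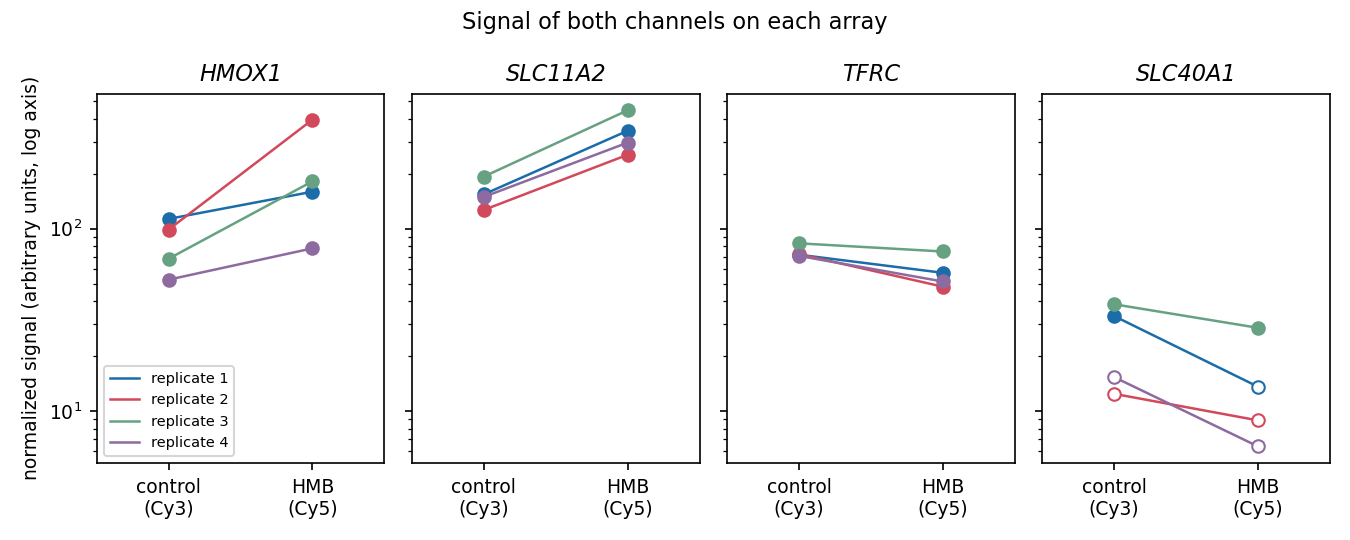
Normalized signal in arbitrary units on a log axis (vertical) of the control channel (Cy3) and the HMB channel (Cy5) on each array, for *HMOX1*, *SLC11A2*, *TFRC* and *SLC40A1*. Lines join both channels of 1 array, and open points were not well above background; the *SLC11A2* lines run in parallel, from 127 to 193 in the control up to 254 to 446 with HMB. Levels of different probes are not comparable.

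Other genes of these pathways were taken from 4 lists, and each gene is given by its brightest tested probe. Of 28 NRF2 target enzymes, 23 were on the array and 21 were tested. Of these, 2 were higher and 4 lower with HMB, and 15 did not pass, which is 28.6% called against 27.3% of all symbols, with a median ratio of -0.06. *ABCG2* (an efflux transporter of drugs and porphyrins) rose by 0.75 ± 0.09 and *UGDH* (UDP-glucose dehydrogenase) by 0.61 ± 0.16 (SD, n = 4; adjusted p = 0.000316 and 0.00162, limma). *EPHX1* (microsomal epoxide hydrolase) stood at -0.82 ± 0.25, *SLC7A11* (the cystine importer that feeds glutathione synthesis) at -0.82 ± 0.31 and *ME1* (cytosolic malic enzyme) at -0.41 ± 0.13 (adjusted p = 0.00135, 0.00267 and 0.00486, limma). The enzymes of glutathione and thioredoxin metabolism *GCLC*, *GCLM*, *GSR*, *TXN*, *TXNRD1*, *PRDX1* and *PRDX6* were not called, with ratios from -0.30 to 0.21.

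Of 24 partners and regulators of NRF2, 19 were on the array and 15 were tested, with 1 higher and 1 lower (13.3% called, against 27.3% of all symbols) and a median of -0.10. *CUL3*, the scaffold of the ligase that KEAP1 serves, gave -0.70, -0.77, -0.70 and -0.73 on arrays 1 to 4 (mean -0.72 ± 0.03, adjusted p = 0.000242, limma). It was lower on all arrays by nearly the same amount, an FC of 1.65, and both of its tested probes were called. *TRIM21*, an antibody receptor and ubiquitin ligase that also acts on the p62 protein bound by KEAP1, gave 1.84, 1.40, 1.65 and 1.17 (mean 1.51 ± 0.29, adjusted p = 0.000190, limma). Its FC was 2.86, and both of its tested probes were called. *SQSTM1*, which encodes p62, was not called (0.17 ± 0.16).

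Of 32 other genes of iron uptake, storage and export, 25 were on the array but only 13 were above background and tested, with 2 higher and 2 lower (30.8% called, near the 27.3% of all symbols) and a median of -0.04. *SLC39A14* encodes ZIP14, a zinc and iron importer. It gave 1.84, 2.09, 2.08 and 1.58 (mean 1.90 ± 0.24, FC 3.73, adjusted p = 4.54e-05, limma), which was above the mean of each of the 9 genes described before. *STEAP3*, the reductase that provides ferrous iron to DMT1 in endosomes, gave 0.56, 1.60, 0.65 and 0.77 (mean 0.90 ± 0.48, adjusted p = 0.00742, limma). It was highest on array 2, as *HMOX1* was, and all 5 of its tested probes were called, from 0.85 to 1.12. *EXOC6* (an exocyst subunit of the transferrin cycle) was lower at -1.05 ± 0.05 and *NEO1* (neogenin, a receptor of the hepcidin pathway) at -0.52 ± 0.09 (adjusted p = 5.80e-05 and 0.00131, limma). The iron sensor *ACO1* (0.29 ± 0.16) and the ferritin receptor *NCOA4* (-0.06 ± 0.10) were not called. *STEAP1* (0.04 ± 0.10) and *STEAP2* (-0.12 ± 0.22) were not called either.

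Of 26 genes of mitochondrial iron and heme, all were on the array and 23 were tested, with 1 higher and 3 lower (17.4% called, against 27.3% of all symbols) and a median of -0.11. *SLC25A28* (mitoferrin 2, which carries iron into mitochondria) gave 0.88, 1.13, 1.24 and 0.86 (mean 1.03 ± 0.19, adjusted p = 0.000280, limma). Its relative *SLC25A37* (mitoferrin 1) was not called (-0.05 ± 0.16). *ALAD*, an early enzyme of heme synthesis, was lower at -0.57 ± 0.03, *SLC46A1* (a transporter of folate and heme) at -0.53 ± 0.11 and *HEBP2* (a heme-binding protein) at -0.46 ± 0.11 (adjusted p = 0.000644, 0.00164 and 0.00262, limma). *ALAS1*, the first enzyme of heme synthesis (0.35 ± 0.13), *FECH*, the last (-0.18 ± 0.15), and *HMOX2*, the constitutive heme oxygenase (0.20 ± 0.07), were not called. Over the 4 lists, *CUL3*, *TRIM21*, *EPHX1*, *SLC7A11*, *SLC39A14*, *EXOC6* and *SLC25A28* kept their calls under each of 19 alternatives, but *EXOC6* was at -0.39 with normexp and -0.60 without background correction. *ABCG2*, *UGDH*, *NEO1* and *ALAD* lost theirs under 2 of them, *HEBP2* and *SLC46A1* under 3, *STEAP3* under 4 and *ME1* under 6, 1 of which left out array 3 (-0.37). The authors' table and marked spots kept left the ratios of all these genes unchanged, and so were no check on them.

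**Figure D3:**
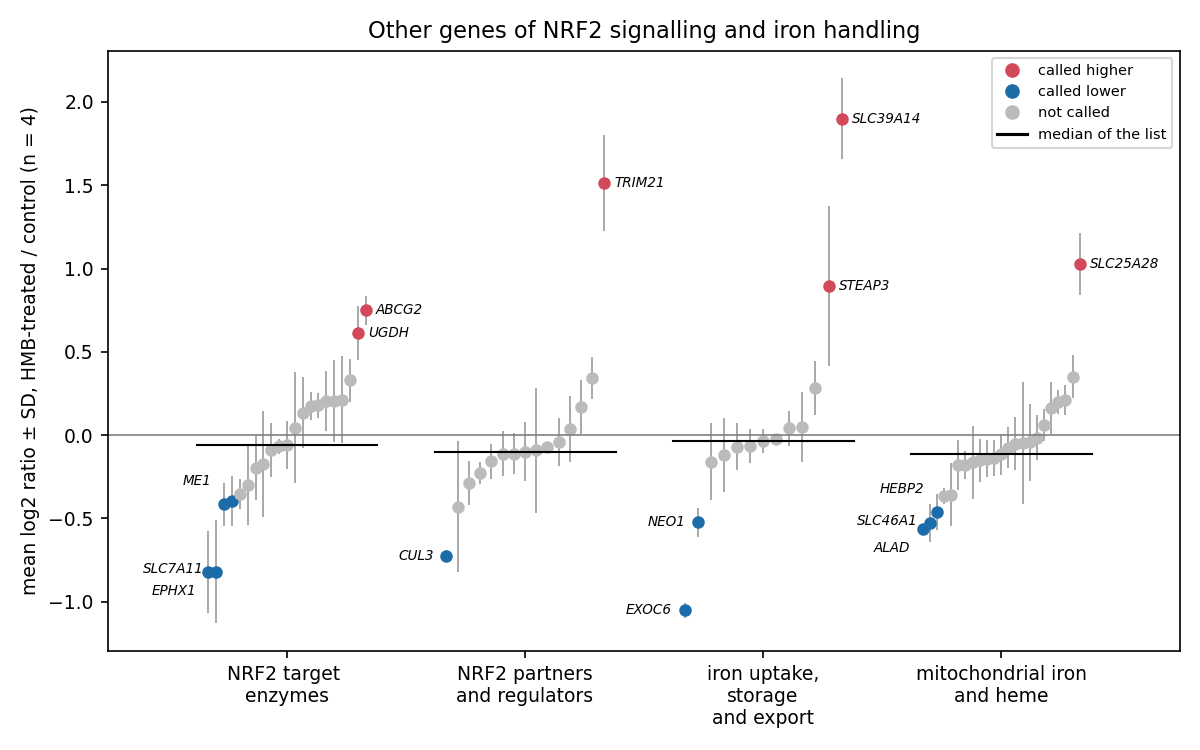
Mean log2 ratio of HMB-treated over control ESC ± SD of 4 arrays (vertical axis) for each tested gene of 4 pathway lists (horizontal axis), ordered within a list by ratio, with called genes in color and the list median as a black line. Most genes lie near 0 and the medians are between -0.11 and -0.04, while *SLC39A14* (1.90) and *TRIM21* (1.51) stand highest and *EXOC6* lowest (-1.05, but -0.39 with normexp, where *CUL3* was at -0.68).

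**Figure D4:**
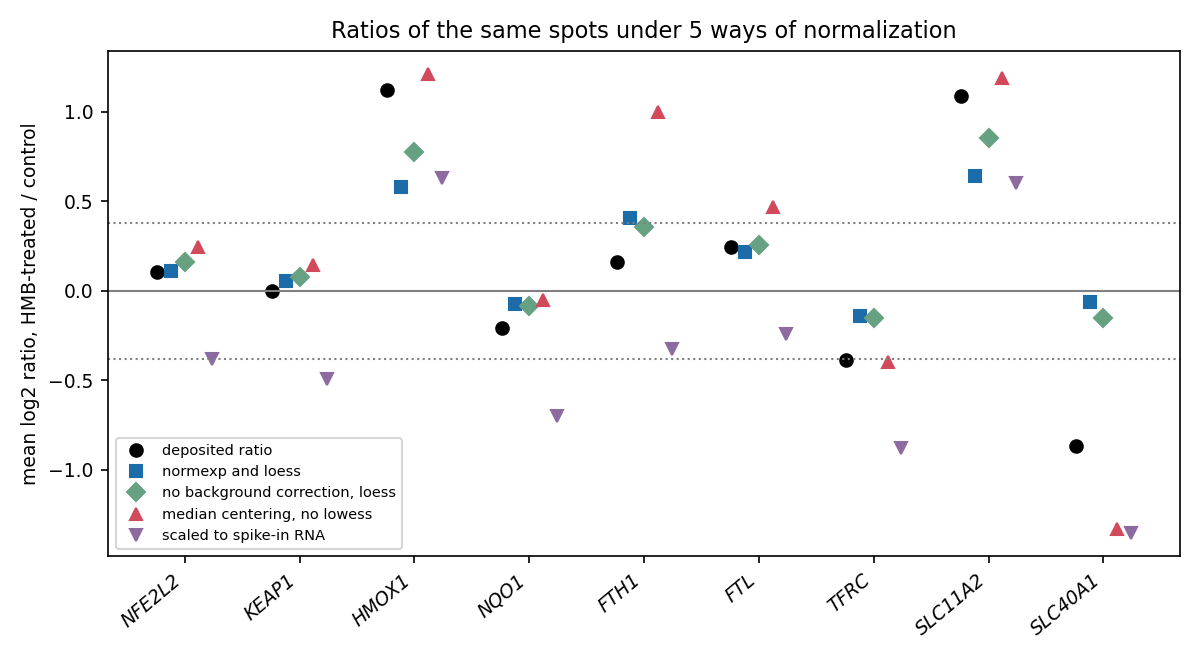
Mean log2 ratio of HMB-treated over control ESC (vertical axis) for the 9 genes (horizontal axis), with the deposited ratios as black circles and 4 other ways of normalization as colored symbols; dotted lines mark an FC of 1.3. *SLC11A2* stays above the line throughout (0.60 to 1.19), *FTH1* runs from -0.33 to 1.00, and scaling to spike-in RNA lowers all genes.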

How the data were processed

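The deposited scanner files give log10 ratios of the Cy5 over the Cy3 signal, made by Agilent's Feature Extraction 10.10.1.1 after background subtraction and linear and lowess normalization within each array. The authors also deposited the intensity of every spot in both channels, raw, background-subtracted and normalized, with flags for background and saturation. A dim signal replaced by a surrogate makes a ratio a bound. Here the deposited log10 ratios were turned into log2 ratios, with no normalization between arrays. The authors' table of normalized log10 ratios was used as an alternative (largest difference 3.96e-05).

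Control spots and marked spots (13 to 35 on an array) were left out and spots of 1 probe were averaged. Ratios were tested against 0 with limma 3.58.1 in R 4.3.3 (intercept, empirical Bayes, Benjamini-Hochberg over all tested probes). A tested probe also had a ratio on at least 3 arrays. A gene was given by its brightest tested probe. The study's methods name Student's t-test with the same thresholds, and a t-test of the ratios against 0 was kept as an alternative. The others were treat, moderation with a trend, separate channels, other filters on dim probes, normexp (offset 50) or no background correction with loess, median centering, scaling between arrays or to spike-in RNA, a correction for probe GC content, marked spots kept, and each replicate left out. Each gene was also taken as the mean over all its tested probes. Genes named are the 10 chosen symbols, per pathway list the 3 largest rises and falls among called genes with 1 sign on all arrays, and the 3 genes most like the one with the largest mean ratio. The other list genes named as not called, *CD68*, *CD14*, *MYF6*, *MYOD1*, *MYOG*, *COL1A2*, *COL3A1* and *ALAS2*, and the levels of single ferritin probes, were picked after their values were seen. Genes and lists were chosen with earlier results of these data known. A test on simulated data of 24669 probes, with 200 of them changed, recovered 46.0%, 76.0%, 94.0% and 100% of probes changed by 0.5, 1, 2 and 3 (log2), with 3 false calls among the rest. Its noise was normal and independent between probes, with no dye effect, and far more probes (7046) were called in the data. These shares thus do not give the power or the error of the comparison itself. The arrays were on 1 slide, and their number (4) limits the precision. Data of other assays were not analysed here.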

Additional observations from a re-analysis of the deposited data

How the results depend on the processing

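The number of called probes (7046) was 2822 with limma's treat, 3539 with normexp and loess, 4440 without background correction and 18570 with scaling to spike-in RNA, and 6641 to 7155 when each replicate was left out. The share of higher calls was 42.5%, against 54.6%, 55.0%, 60.1% and 6.72% in these settings and 63.2% with median centering. The 3 called genes became 1 with the methods' t-test, with treat and with no filter on dim probes, 5 with median centering and 5 with spike-in scaling, and 2 to 3 without a replicate. The 16 called list genes became 8 with treat and 55 with spike-in scaling, and 16 to 20 without a replicate. Median centering moved the median of all probes by 0.14 and spike-in scaling by -0.49. Spike-in scaling moves all probes of an array by the same amount, so it could not change the distance of these genes from the median of all probes. With or without it, that distance was 0.17 for *NFE2L2*, 0.07 for *KEAP1*, -0.14 for *NQO1*, 0.23 for *FTH1* and 0.31 for *FTL*.

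*HMOX1* (1.12) was not called with the t-test (adjusted p = 0.109), treat (0.0978) or no filter (0.0996), nor with normexp (0.58) or spike-in scaling (0.63), and was 0.83 to 1.33 without a replicate. *TFRC* (-0.39) was not called with the t-test (0.0704), treat (1) or no filter (0.0593), nor with normexp (-0.14) or no background correction (-0.15), and was -0.47 to -0.32 without a replicate. Spike-in scaling gave -0.88 for *TFRC*, called (adjusted p = 0.000344, limma). Relative to the median *TFRC* was at -0.32, a distance that this scaling could not change. With separate channels and no replicate block, which drops the pairing on the array, *TFRC* was at -0.38 (adjusted p = 0.115). *FTH1* was called at 0.41 with normexp and 1.00 with median centering and turned to -0.33 with spike-in scaling, and *FTL* was called at 0.47 with median centering and turned to -0.24. Spike-in scaling gave -0.38 for *NFE2L2*, -0.49 for *KEAP1* and -0.70 for *NQO1*, all called. *KEAP1*, near 0, was at 0.056 with normexp, 0.077 without background correction, 0.14 with median centering and -0.033 to 0.029 without a replicate. *SLC40A1* was at -0.060, -0.15 and -1.35 with normexp, no background correction and spike-in scaling. The causes were not tested. *SLC40A1* was well above background in both channels on 1 array only.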

Other observations

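A further probe without a gene symbol, described in the files as a ferritin light chain transcript (ENSECAT00000003107), gave ratios of 0.57, 0.23, 0.15 and 0.19 (mean 0.29 ± 0.19, n = 4; adjusted p = 0.0376, limma). It was above 0 on all 4 arrays and, like *FTL*, under the FC threshold. A probe for a ferritin heavy chain-like transcript was not above background on any array.

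*NFE2L1*, a relative of NRF2, gave -0.85, -0.44, 0.10 and -0.53 (mean -0.43 ± 0.39, adjusted p = 0.0518, limma) and was not called. Of the enzymes that reduce biliverdin, the product of heme oxygenase, *BLVRA* was called lower (-0.40 ± 0.15, adjusted p = 0.00736) and *BLVRB* was not called (0.33 ± 0.13, FC 1.26). These genes were picked after their values were seen.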
